A study of Mus musculus with 10 samples.

Results

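The miRNAs described here come from the Hox clusters, the chromosomal groups of homeobox genes that pattern the body axis. Members were the rows of the deposited liver table named miR-10a, miR-10b, miR-196a or miR-196b, with any arm suffix removed. The rule found 2 rows, miR-10a and miR-10b, among 285 miRNAs, and miR-196a and miR-196b are not analysed here. The rule used names and no measured value, but it was chosen with earlier results of these data known. All 10 libraries came from mouse liver at 14 weeks of age. The mutant group was 5 L-Tsc1KO mice, which lack Tsc1 in the liver and are called Tsc1 mutant below, and the control group was 5 of their littermates. Tsc1 encodes a subunit of the TSC complex, which holds back mTORC1 signalling. Which alleles and Cre driver were used, and the sex of the animals, is not given in the sources used here. All animals had free access to food and water, and whole pieces of liver were extracted, so every cell type of the tissue contributed RNA.

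A miRNA is cut from a hairpin in a longer transcript and guides an Argonaute protein to messenger RNAs that pair with its seed, bases 2 to 8. The miR-10 hairpins lie next to Hox4 genes in vertebrates, and their expression along the body follows that of the neighbouring Hox genes. In mammals both are known from posterior trunk tissues, and miR-10b is also studied for its part in tumour cell invasion. The 2 mature sequences are nearly the same, which matters for how their reads are told apart. They are printed here from RefSeq for GRCm38.p6, 5′ to 3′, with the seed in capitals, beside 3 relatives of the wider miR-10 and miR-100 family that are also in the table.
miR-10a-5p: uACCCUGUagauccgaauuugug
miR-10b-5p: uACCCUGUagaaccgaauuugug
miR-99a-5p: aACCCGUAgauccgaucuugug
miR-99b-5p: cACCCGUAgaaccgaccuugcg
miR-100-5p: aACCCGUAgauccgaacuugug

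Counted from 1 at the 5′ end, miR-10a-5p and miR-10b-5p differ at 1 of 23 bases, U12A, which lies outside the seed. They share the seed ACCCUGU, and no other row among the 239 of 285 that matched a RefSeq mature sequence carried it. The relatives miR-99a, miR-99b and miR-100 share the seed ACCCGUA with each other. Their longest stretch in common with miR-10a-5p was 11 bases for miR-100, 10 bases for miR-99a and 5 bases for miR-99b. These lengths hold for miR-10a-5p only and do not rank the relatives by likeness to miR-10b-5p. At the base matching U12A, miR-99b-5p carries the A of miR-10b-5p, whereas miR-99a-5p and miR-100-5p carry the U of miR-10a-5p. The rows of the table carry no arm for these miRNAs. Under older naming such a name usually stood for the more abundant arm, here the 5p arm, but whether 3p reads were added is not given in the sources used here.

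The hairpins are shown next because they place the 5p arm, in capitals, and show how far the precursors differ outside it.
Mir10a: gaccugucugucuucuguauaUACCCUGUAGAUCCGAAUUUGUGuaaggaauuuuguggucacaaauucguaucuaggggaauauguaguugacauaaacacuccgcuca
Mir10b: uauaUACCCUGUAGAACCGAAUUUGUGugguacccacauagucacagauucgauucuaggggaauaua

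Mir10a lies at chr11:96317165-96317274 on the plus strand of GRCm38, in the Hoxb cluster. In GENCODE M21 it overlaps no other gene there, and Hoxb4 starts 993 bases downstream of it on the same strand. Mir10b lies at chr2:74726070-74726137 on the plus strand, in the Hoxd cluster. It falls in introns of 2 annotated transcripts of Hoxd4 and of 1 transcript of Hoxd3. Coordinates were taken by gene name, and the authors' build is not given in the sources used here. Messenger RNA of the Hox genes was not measured in these libraries.

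**Figure D1:**
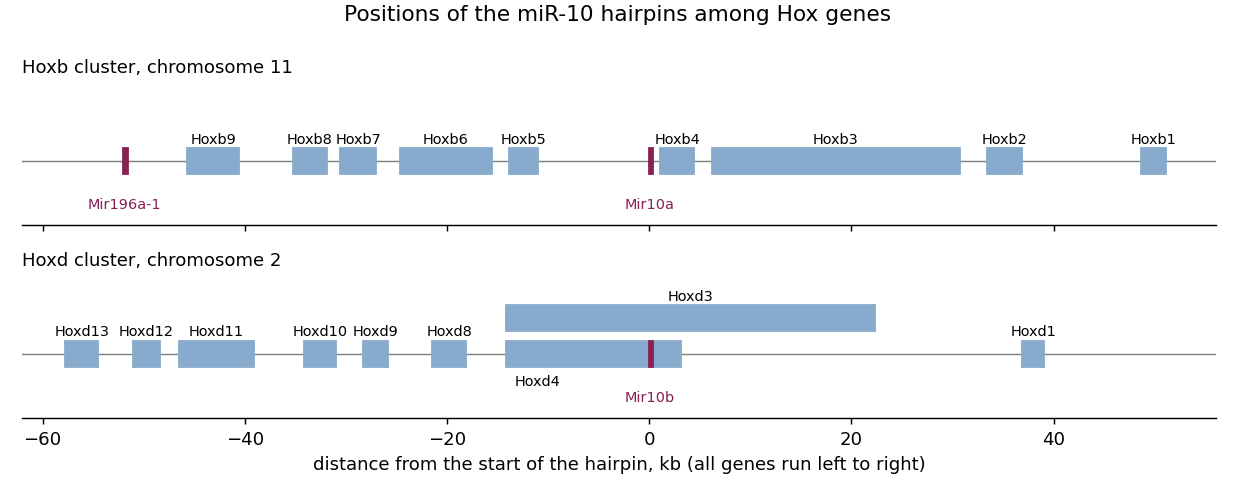
Genes of the Hoxb and Hoxd clusters (blue) and miRNA hairpins (purple, widened to be visible) in GENCODE M21, by distance in kb from the start of the miR-10 hairpin. Mir10a sits just before Hoxb4, and Mir10b lies inside Hoxd4 and Hoxd3.

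The libraries held between 6228497 and 12129069 miRNA reads over the 285 listed miRNAs. Values are normalised reads, the authors' read counts divided by 1 factor per library, and a single read was worth between 0.711 and 1.68 normalised reads. The hepatocyte miRNAs miR-122, miR-192 and miR-194 together gave between 2817776 and 4979931 normalised reads per library, and miR-122 ranked first of all miRNAs by mean level. Control replicate 2 stood apart by high miRNAs of epithelium and striated muscle. Comparisons between genotypes are therefore given with and without it. Nothing in the labels says more about how the animals were related than that controls were littermates. These libraries hold no Tsc1 messenger RNA, which leaves the genotype of each liver unchecked.

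The level of miR-10a was high in every liver, and the genotypes did not differ beyond the spread between livers. It was 73968, 57978, 73041, 64914 and 74877 normalised reads in control replicates 1 to 5. In the Tsc1 mutant replicates 1 to 5 it was 74642, 57718, 61530.4, 68317 and 62796 normalised reads. The ranges of the groups overlapped almost fully, and the highest library was only 1.29 times the lowest within either genotype. Among the 285 miRNAs of a library miR-10a ranked between 19 and 26 by level. Its share of miRNA reads was 0.726 ± 0.0951% over the 5 controls and 0.706 ± 0.0732% over the 5 mutants (mean ± SD).

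The control mean of miR-10a was 68956 ± 7310 normalised reads and the mutant mean 65001 ± 6593 (SD over 5 livers each). On the log2(value + 1) scale the fold change, mutant against control, was -0.084 ± 0.12 (SE), and the adjusted p from limma was 0.777. The 2-sided exact permutation p for the same difference was 0.381. The 95% interval of the fold ran from 0.791 to 1.13. Without control replicate 2 the estimate was -0.15 ± 0.12 (SE) at an adjusted p of 0.608 from limma. That library was the lowest control for miR-10a.

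The level of miR-10b was far lower and varied strongly between livers of the same genotype. It was 382, 3302, 864, 488 and 470.0 normalised reads in control replicates 1 to 5. In the Tsc1 mutant replicates 1 to 5 it was 395, 343, 475, 532 and 1169 normalised reads. Control replicate 2 had the highest value, Tsc1 mutant replicate 5 the next and control replicate 3 the one after. The other 7 libraries, 3 controls and 4 mutants, lay between 343 and 532 normalised reads with the genotypes interleaved. Among 285 miRNAs its rank ran from 67 in control replicate 2 to 143 in Tsc1 mutant replicate 2.

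**Figure D2:**
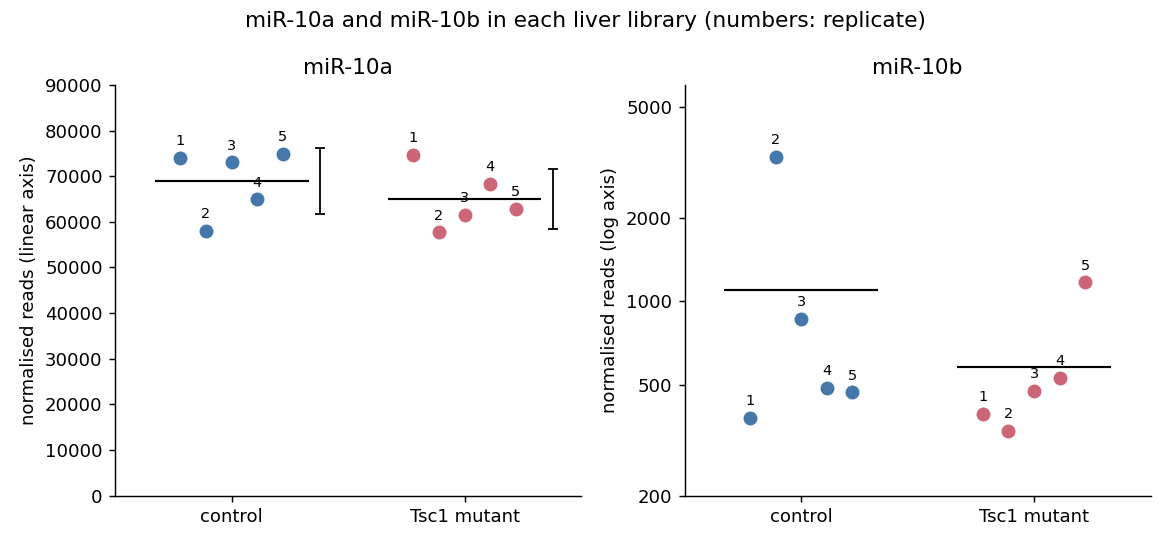
Normalised reads of miR-10a (linear axis) and miR-10b (log axis) in the 5 control and 5 Tsc1 mutant libraries. Points are libraries with their replicate number, horizontal lines are group means, and the bars beside miR-10a are ± SD. The miR-10a points of the groups share 1 range, whereas control replicate 2 and Tsc1 mutant replicate 5 stand above the rest for miR-10b.

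Counting error was small beside these differences. The 4644 reads of miR-10b in control replicate 2 were 0.0383% of the library (95% exact binomial interval 0.0372 to 0.0394%). The 1177 reads in Tsc1 mutant replicate 5 were 0.0125% (0.0118 to 0.0133%), and the 1002 in control replicate 3 were 0.00835% (0.00784 to 0.00888%). The lowest share was 0.00371% (0.00335 to 0.00409%), from 404 reads in Tsc1 mutant replicate 2. The intervals of the 3 highest libraries overlapped neither each other nor those of the remaining 7.

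The control mean of miR-10b was 1101 ± 1244 normalised reads and the mutant mean 583 ± 335 (SD over 5 livers each). Its log2 fold change was estimated at -0.53 ± 0.56 (SE). The adjusted p from limma was 0.703, and the 2-sided exact permutation p was 0.524. The 95% interval of the fold, 0.294 to 1.63, was wide. Without control replicate 2 the control mean was 551 ± 214 (SD, n = 4) and the estimate 0.0023 ± 0.37 (SE), at an adjusted p of 0.999 from limma. The interval of the fold then ran from 0.569 to 1.76. With Tsc1 mutant replicate 5, the highest mutant, left out as well, the estimate was -0.29 ± 0.28 (SE), at an adjusted p of 0.746 from limma. With only Tsc1 mutant replicate 5 left out it was -0.82 ± 0.56 (SE), at an adjusted p of 0.502 from limma. The size of the estimate thus turned on which of the 2 high libraries were kept. The 1 value above 0, 0.0023, was far smaller than its SE and gives no direction.

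Neither member passed the threshold, an adjusted p of 0.05 over all miRNAs. In the same fit 13% of the 285 miRNAs passed, 10.9% as higher and 2.11% as lower in mutants, and without control replicate 2 it was again 13%. The groups did not overlap for 12.6% of the miRNAs, or 14.7% without that library, and they overlapped for both members in either case.

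**Figure D3:**
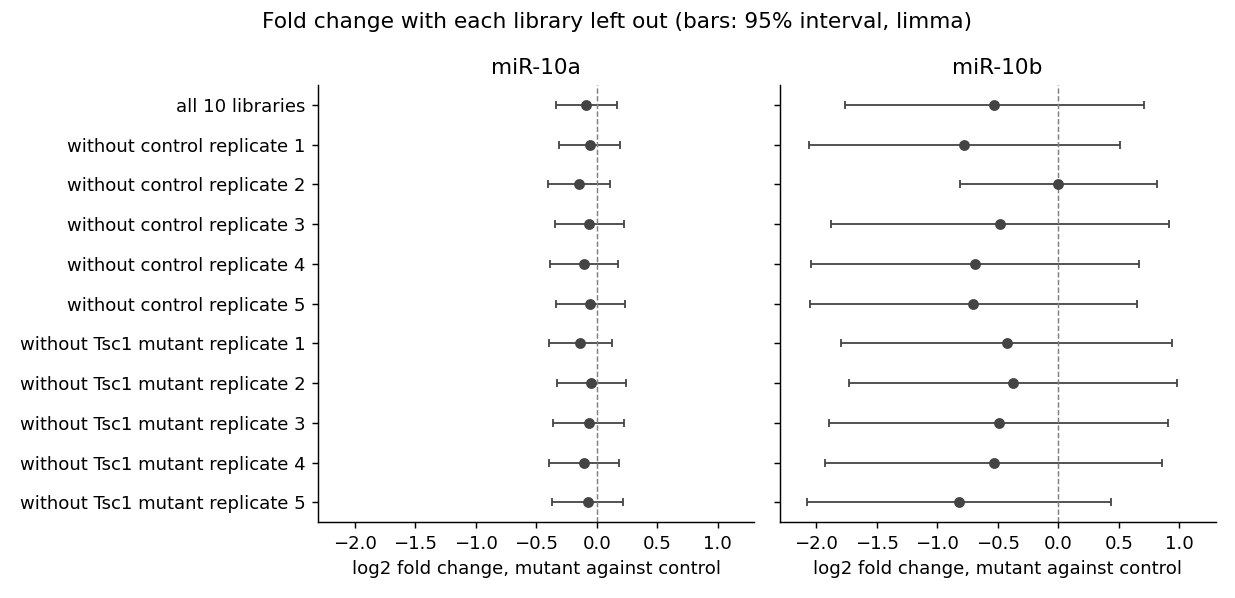
Log2 fold change of miR-10a and miR-10b, mutant against control, with all 10 libraries and with each left out in turn. Points are limma estimates and bars their 95% intervals. All intervals include 0, and the estimate for miR-10b moves from -0.53 to 0.0023 when control replicate 2 is left out.

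Set against each other within a library, the pair is free of scaling between libraries. There were 0.516, 5.70, 1.18, 0.752 and 0.628 reads of miR-10b per 100 of miR-10a in control replicates 1 to 5. In the Tsc1 mutant replicates 1 to 5 there were 0.529, 0.594, 0.772, 0.779 and 1.86. The same 3 libraries stood out as for the level of miR-10b, and the other 7 lay between 0.516 and 0.779. Since these mature miRNAs have equal length and differ by 1 base, some reads may be assigned to the wrong member, and the authors' handling of them is not stated. The control with the most miR-10b, replicate 2, was the one with the least miR-10a. It was at 57978 normalised reads of miR-10a against a median of 73505 in the other controls, and at 3302 of miR-10b against 479. The low value was not particular to miR-10a in that library. By log2 excess over the median of the other controls, -0.34, miR-10a ranked 233 of 285 from the highest, so other miRNAs fell further. The median log2 excess of the hepatocyte miRNAs was -0.24 there, beside 0.011 over all 285 miRNAs. Whether wrongly assigned reads had a part in the low miR-10a or the high miR-10b was not tested.

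Both members share a seed, and miR-10a supplied nearly all of its reads. The pair summed to 70057 ± 6323 normalised reads over the 5 controls and to 65583 ± 6558 over the 5 mutants (mean ± SD), and to 72251 ± 4606 over the 4 controls other than replicate 2. Of that sum miR-10b made up 5.39% in control replicate 2, 1.83% in Tsc1 mutant replicate 5 and between 0.514 and 1.17% in the other libraries. The sum was 61280.2 normalised reads in control replicate 2, the lowest of the controls, in spite of its high miR-10b.

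The members lay near opposite ends of the range of variation between livers. The SD within genotype on the log2 scale was 0.15 for miR-10a, which ranked 12 of 285 from the least variable. It was 1.02 for miR-10b, which ranked 266, and the median of all miRNAs was 0.44. Among the 20 miRNAs nearest in rank by mean level, 10 above and 10 below, 4 varied less than miR-10a and 19 varied less than miR-10b. Without control replicate 2 the SD of miR-10b was 0.62 (rank 209), and with Tsc1 mutant replicate 5 left out as well it was 0.41 (rank 139), close to the median of 0.41. For miR-10a the SD was 0.13 in both cases, at ranks 9 and 11.

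**Figure D4:**
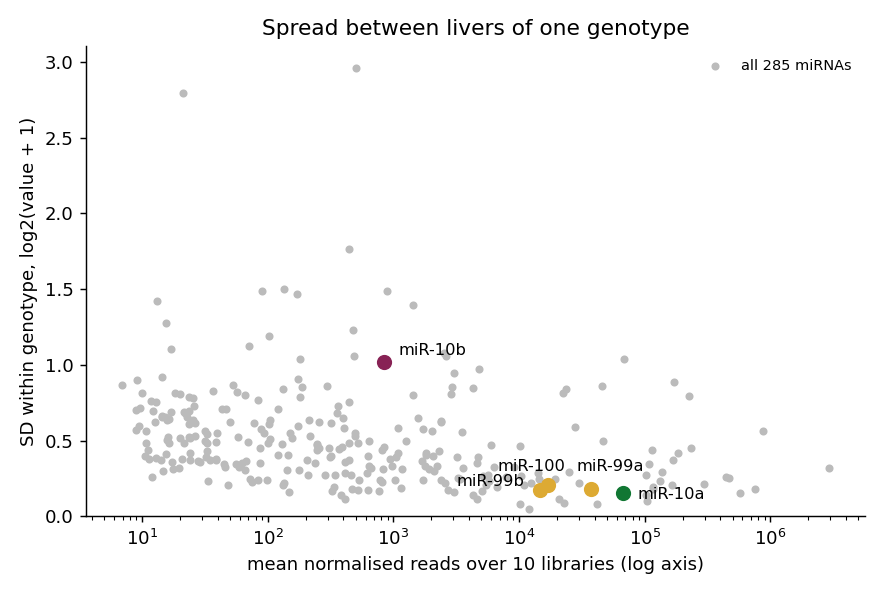
SD within genotype on the log2(value + 1) scale against the mean level over 10 libraries (log axis) for all 285 miRNAs (grey). The members miR-10a and miR-10b and their relatives (yellow) are marked, with miR-10b at 1.02 and miR-10a at 0.15.

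Most of the listed markers of epithelium and striated muscle were high in control replicate 2, the library with the most miR-10b. In control replicate 2 the 6 epithelial miRNAs, miR-375 and the miR-200 family, summed to 36779 normalised reads against 5035 to 6127 in the other controls. All 6 were at their highest of the 10 libraries there. The 3 striated muscle miRNAs in the table out of 5 listed, miR-1a, miR-133a and miR-206, summed to 5638 against 268 to 559. Of this sum miR-1a gave 5534, and miR-1a and miR-133a were at their highest of the 10 libraries there. By contrast miR-206 was at 4.98 normalised reads, from 7 reads, 0.612-fold of the median of the other controls. The 5 stellate and smooth muscle miRNAs summed to 363788 against 164279 to 234055 normalised reads, and 2 of them were at their highest there. Nearly all of this sum was miR-143, at 346370 normalised reads and 2.04-fold of the median of the other controls. The rest of that list was at 1.08-fold for miR-145 to 1.26-fold for miR-214.

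The other libraries with raised miR-10b did not repeat this pattern in full. In Tsc1 mutant replicate 5 the striated muscle list summed to 919 normalised reads against 151 to 380.0 in the other mutants. This came mainly from miR-1a at 897 normalised reads, 4.95-fold of the median of the other mutants. From few reads, miR-133a was at 3.97 (4 reads, 1.37-fold) and miR-206 at 17.9 (18 reads, 1.35-fold). The epithelial list was at 6635 there, below the 7055 of the highest mutant. Of its 6 miRNAs, 3 were at their highest of the mutants there, namely miR-375, miR-429 and miR-200a. The median log2 excess of that list over the other mutants was 0.50, beside 2.99 over the other controls in control replicate 2. The stellate and smooth muscle list was the lowest of all 10 libraries at 131317 in Tsc1 mutant replicate 5. In control replicate 3 the epithelial sum of 5035 was the lowest of the controls and the striated muscle sum was 313. No member of these lists was at 0 in any library, and the part of such tissue in the miR-10b values was not tested. In bulk tissue, a different number of cells of a type cannot be told apart from a different amount of RNA per cell.

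**Figure D5:**
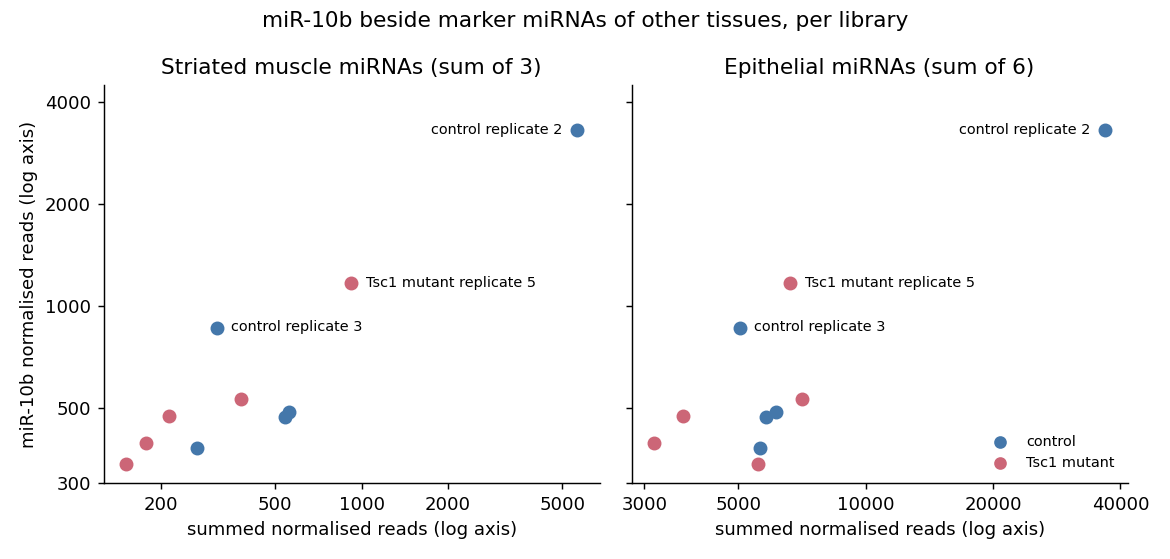
miR-10b against the summed level of striated muscle miRNAs (left) and epithelial miRNAs (right) in each library, all in normalised reads on log axes. Control replicate 2 is highest on all 3 measures, Tsc1 mutant replicate 5 is raised for miR-10b and the muscle sum, and control replicate 3 for miR-10b alone.

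The remaining marker lists overlapped in range between the genotypes. Endothelial miR-126 arms summed to between 113035 and 160119 normalised reads in controls and between 114892 and 160253 in mutants. The 7 leukocyte miRNAs ran from 17644 to 29326 and from 16797 to 22575, and the 3 erythroid miRNAs from 3886 to 5924 and from 3431 to 6533. The neural list, with 2 of its 3 miRNAs in the table, ran from 66.4 to 175 and from 56.6 to 93.0. The miRNAs of exocrine pancreas are not analysed here. The hepatocyte list reached its highest value in control replicate 4. In none of the lists did a member pass the threshold in either direction, with or without control replicate 2, beside 13% of all miRNAs in both cases. The median log2 fold change was -0.77 for the epithelial and -1.27 for the striated muscle list, beside -0.056 over all 285 miRNAs. Without control replicate 2 these medians were -0.19 and -0.50, beside -0.058. For the neural list the median was -0.47 with that library and -0.40 without it, and for the leukocyte list -0.21 and -0.18. The hepatocyte, endothelial and stellate and smooth muscle lists had medians of -0.033, -0.055 and -0.10, and the erythroid list one of 0.11. Without that library these 4 were -0.063, -0.075, -0.070 and 0.19.

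The profiles most like that of miR-10b over the 10 libraries belonged to miR-1a, miR-200c, miR-375, miR-200b and miR-141, out of 244 miRNAs averaging 20 or more normalised reads. As a description of log2 values, Pearson's r was 0.91 for miR-1a, a miRNA of heart and skeletal muscle, and between 0.82 and 0.88 for the 4 epithelial miRNAs. Spearman's rho was 0.81 for miR-1a and between 0.53 and 0.72 for the others. Over the 8 libraries other than control replicate 2 and Tsc1 mutant replicate 5, r was 0.42 for miR-1a, 0.62 for miR-200c, 0.24 for miR-375, 0.18 for miR-200b and 0.055 for miR-141. With only control replicate 2 left out, r was 0.70 for miR-1a, 0.52 for miR-200c, 0.46 for miR-375, 0.37 for miR-200b and 0.068 for miR-141. The likeness therefore rested largely on control replicate 2, and for miR-1a, miR-375 and miR-200b in part on Tsc1 mutant replicate 5. Each of these libraries also shared 1 scaling factor across all its miRNAs. Against the median of the other controls, the median log2 excess over all 285 miRNAs was 0.011 in control replicate 2. It was -0.013 in Tsc1 mutant replicate 5 against the other mutants, and the part of scaling was not tested.

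The most like miR-1a was 5534 normalised reads in control replicate 2 and 258 to 545 in the other controls. In mutants it was 897 in replicate 5 and 133 to 359 in the others. Its libraries thus had the same leading pair as those of miR-10b, although control replicate 3, high for miR-10b, was at 295 for miR-1a.

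Likeness to miR-10a was ranked in the same way, and its 5 are likewise the highest picked from 244. The 5 most like it were miR-345-3p, miR-378b, miR-874, miR-148a and miR-146a, with Pearson's r between 0.72 and 0.80 and Spearman's rho between 0.75 and 0.79 over 10 libraries. Over the same 8 libraries as above, which are among the 10 that picked them, r was between 0.67 and 0.81. The scaling factor of each library is shared by these miRNAs too. Of these, miR-148a is an abundant hepatocyte miRNA and miR-146a one induced by inflammatory signalling. None of the 5 overlapped with the set for miR-10b, and the members themselves had an r of -0.41 and a rho of -0.24.

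The relatives with the ACCCGUA seed resembled miR-10a rather than miR-10b in level and spread. In controls miR-99a ran from 29721 to 44905 normalised reads and in mutants from 34029 to 40674. For miR-99b the ranges were 13186 to 17872 and 12319.8 to 15704, and for miR-100 they were 15209.9 to 20699 and 12863 to 19994. The groups overlapped for all 3. Their log2 fold changes were 0.036 for miR-99a, -0.15 for miR-99b and -0.26 for miR-100, with limma adjusted p-values of 0.952, 0.587 and 0.338. Without control replicate 2 they were -0.0041, -0.095 and -0.25, with limma adjusted p-values of 0.999, 0.826 and 0.478, so the sign for miR-99a turned. Hence 0 of 3 passed the threshold in either case, beside 13% of all miRNAs. Their SDs within genotype were 0.18, 0.17 and 0.21 on the log2 scale, at ranks 25, 22 and 33 of 285 from the least variable.

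In control replicate 2 the relatives stayed near the other controls. Set against the median of the other 4 controls, that library was at 0.839-fold for miR-99a, 1.22-fold for miR-99b, 0.991-fold for miR-100 and 0.789-fold for miR-10a. For miR-10b it was at 6.89-fold. Tsc1 mutant replicate 5 was at 2.69-fold for miR-10b and at 0.967-fold for miR-10a against the median of the other 4 mutants.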

How the data were processed

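Per the labels, small RNA libraries were made from TRIzol extracts of liver and sequenced on an Illumina instrument. The deposited table holds a normalised signal per miRNA, made by the authors by scaling the reads of each library with a single factor. DESeq is named in the submitters' processing notes, with no version. No aligner, build or miRNA annotation is given in the sources used here. Columns were matched to samples by library number. Every value was a whole multiple, within 0.001, of 1 step per library, and division by it gave whole reads. Reads without molecular identifiers are not independent molecules, so binomial intervals cover counting error only. Between livers, p-values set the difference between genotypes against the spread between these samples.

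Values were compared as log2(value + 1) with limma 3.58.1 in R 4.3.3, with an intensity trend and Benjamini-Hochberg adjustment over all 285 miRNAs, which all had a mean of at least 5. This scale slightly understates changes of low miRNAs. The fit was tested on simulated data. Exact permutation tests ran over 252 splits, or 126 without control replicate 2, and the smallest p they can give is 0.00794 and 0.0159, respectively. The members, marker lists and tests were chosen with earlier results of these data known. Named besides the members are their relatives, the 5 miRNAs with the most similar profile by Pearson's r, and the neighbours by mean level. Alternatives covered pseudocounts, filters, scalings, weights, a replicate block and left-out libraries. Voom on whole reads and the joint omission of control replicate 2 and Tsc1 mutant replicate 5 were added after the data were seen. Figures used matplotlib 3.10.9.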

Additional observations from a re-analysis of the deposited data

Results flagged for a closer look

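In 54 groups of 5 values looked at, for 27 miRNAs and list sums, 12 had 1 library apart from the other 4. The rule was a gap of over 0.71 of the group's range, taken on normalised reads and not on the log2 scale. Chance gives such a gap in about 1 of 20 groups if values follow a normal distribution, but that rate cannot be set against this count. The 5 miRNAs most like miR-10b were chosen for their profile over these libraries, and the list sums hold miRNAs that were also looked at singly.

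For miR-10b both genotypes had such a library. Control replicate 2 was at 3302 normalised reads against 382 to 864 in the other controls, and Tsc1 mutant replicate 5 at 1169 against 343 to 532 in the other mutants. No such library was found for miR-10a.

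The same control library also stood above the other controls for miR-1a at 5534, miR-200c at 2535, miR-375 at 989.7, miR-200b at 20271 and miR-141 at 392 normalised reads. Its summed level was 36779 for the epithelial list and 5638 for the striated muscle list.

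Control replicate 1 stood above the other controls for miR-15a at 1335 and for miR-29b at 1164 normalised reads, both close to miR-10b in mean level. It stood below them for the endothelial list at 113035 normalised reads.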

How the results depend on the processing

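Neither member passed the threshold in any of 24 alternatives. The log2 fold change of miR-10a stayed below 0, between -0.18 and -0.038, with a lowest limma adjusted p of 0.210. That of miR-10b lay between -0.82 and 0.0023, with a lowest limma adjusted p of 0.394. It rose above 0 in 1 alternative, at 0.0023 ± 0.37 (SE) without control replicate 2, a value far smaller than its SE. With Tsc1 mutant replicate 5 also left out it was -0.29, and with both libraries numbered 1 left out beside control replicate 2 it was -0.047. With each library left out in turn, miR-10a ranged from -0.15 to -0.043 and miR-10b from -0.82 to 0.0023.

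Over all miRNAs 31 were higher and 6 lower in mutants. With the minimum mean raised to 50, which tests fewer miRNAs, 19 were higher and 3 lower. The number lower was 23 with array weights, 11 without both libraries numbered 1, and 13 with control replicate 2 left out as well, and the cause was not tested. It ranged from 2 to 10 with each library left out in turn, where the 10 came on leaving out control replicate 1, the 2 on leaving out Tsc1 mutant replicate 4, and a count of 3 on leaving out either control replicate 3 or control replicate 5. With a replicate block 35 were higher and 10 lower, and the log2 fold changes were -0.084 for miR-10a and -0.53 for miR-10b. Deviations of same-numbered libraries correlated at 0.81, 0.16, -0.021, 0.46 and 0.048 for numbers 1 to 5, and 2 of 5 controls correlated best with the mutant of their own number, so the numbers are not shown to pair the animals. The planned edgeR and DESeq2 fits were not run, because the table holds too few low values to check the recovered reads as raw counts, and voom was run on those reads as an added alternative. Depth was not the limit for miR-10b, since the counting CV was at most 5.87% in any library, and the spread between livers sets the width of its interval.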

Other observations

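Control replicate 2 was the highest of the 10 libraries for 30 of 285 miRNAs, among them miR-10b. By its excess over the median of the other controls, 2.78 on the log2 scale, miR-10b ranked 8 of 285 there. Tsc1 mutant replicate 5 was the highest of the 10 libraries for 5 of 285 miRNAs, and by its excess over the other mutants, 1.43 on the log2 scale, miR-10b ranked 3. Ahead of it in both libraries were miR-5105, at 3.96 and 5.38 from few reads, and miR-1a, at 3.84 and 2.31. These ranks were looked up after the values of miR-10b were seen, and miRNAs with few reads weigh in them as much as abundant ones.

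The neighbours of the members by mean level showed how much spread occurs at the same depth. Next to miR-10a stood let-7b, a member of the let-7 family, with a within-genotype SD of 1.04 on the log2 scale, and miR-92a, of the miR-17-92 cluster, with 0.50. Next to miR-10b stood miR-15a with 0.46 and miR-29b with 0.31. None of the 4 passed the threshold, with log2 fold changes of -0.25 for let-7b, -0.47 for miR-92a, 0.41 for miR-15a and 0.25 for miR-29b.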
